A study of Homo sapiens with 12 samples.

Results

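The genes described here are 32 members of cholesterol synthesis and of its control by the sterol regulatory element-binding proteins (SREBPs), taken by symbol from a table of 29607 genes. All 32 were found, and all had at least 1 TPM in all 12 libraries. The unit is TPM, a level per transcript length that sums to the same total in every library. RNA came from KMS11, an established human multiple myeloma line studied for STK17B, ferroptosis and drug resistance, in 6 groups of 2 libraries. The groups were cells with a control hairpin (shControl), cells with hairpin sh1 or sh2 against the kinase STK17B, cells given an STK17B inhibitor, cells with an empty vector (Vector) and cells with a vector that overexpresses STK17B. The labels call shControl, inhibitor and Vector cells WT and list every group but the inhibitor as without treatment. The series design places the inhibitor on control-hairpin cells, next to a vehicle arm that no sample label names, so the inhibitor was compared with shControl and a solvent effect cannot be told apart. The inhibitor's name, dose and time, the promoter of the cDNA vector and the origin of the replicates as separate cultures are not given in the sources used here. Each p-value thus sets a change against differences among these libraries only, which may be technical.

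Cholesterol is built from acetyl-CoA through mevalonate and the isoprenoid farnesyl diphosphate, then through squalene and lanosterol. When membranes of the endoplasmic reticulum are low in sterol, the escort protein SCAP carries SREBP precursors to the Golgi, where proteases release the transcription factors that switch on nearly every enzyme of the route. When sterol is plentiful, INSIG1 or INSIG2 holds SCAP in the reticulum. INSIG1 is itself an SREBP target, and in other cells INSIG2 is less dependent on SREBP. The liver X receptors (LXRs) respond to oxysterols and raise genes of sterol export. Plasma cells need membrane for an enlarged reticulum, so the route is of interest in myeloma.

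STK17B stood at 27.1 and 27.4 TPM in shControl, 12.7 and 10.9 with sh1, 14.7 and 14.5 with sh2, 24.9 and 22.4 with the inhibitor, 28.2 and 31.5 in Vector and 94.1 and 84.5 with overexpression. It fell by 0.998 in the knockdown and rose by 1.55 with overexpression, in the direction of the labels, and was not called with the inhibitor (-0.20). Between 11672 and 12353 genes reached 1 TPM in a library. The overexpression libraries had the highest counts (12353 and 12304), followed by Vector (12027 and 12096). Of 10 plasma cell markers 9 were in the table, and their summed level ran from 2368 to 2395 TPM in shControl, 1633 to 1636 with sh1, 1907 to 1917 with sh2, 1739 to 1774 with the inhibitor, 2586 to 2602 in Vector and 2131 to 2137 with overexpression. CD38 was low throughout, between 0.13 and 1.47 TPM. Of 14 markers of other cells, between 3 and 5 reached 1 TPM in a group, CD3D and LUM were at 0 in every library, and CD7 alone (139 to 442 TPM) made up most of a sum of 150.5 to 155.5 TPM in shControl, 250.2 to 265.4 with sh1, 227 to 227.3 with sh2, 233.7 to 249.4 with the inhibitor, 229.8 to 243.6 in Vector and 425.3 to 459 with overexpression. Both sums differ between groups. The plasma cell sum was lower with the inhibitor and with overexpression than in its control, as were the enzyme sums below. With sh1 and sh2 the plasma cell sum was also lower, whereas the enzyme sums were higher. Among the perturbed groups, its order from the lowest (sh1, inhibitor, sh2, overexpression) was also that of INSIG1, described below. The part of either marker sum in the results was not tested. In bulk RNA, fewer cells of a kind and less RNA per cell cannot be told apart.

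Changes were fitted over all 12731 genes with at least 1 TPM in 2 libraries, and a gene is called when its limma p, adjusted by Benjamini-Hochberg over those genes, is below 0.05. Changes are on the log2(TPM + 1) scale, which understates changes of low genes. In the knockdown (the mean of both hairpins against shControl) 17 of the 32 genes rose and 5 fell, that is 53.1% and 15.6%, where 26.2% and 20.2% of all tested genes were called higher and lower. With the inhibitor 4 rose and 16 fell (12.5% and 50%), against 28% and 11.8% of all genes. With overexpression, compared with Vector, 5 rose and 18 fell (15.6% and 56.2%), against 26.6% and 10.3%. The 32 genes had a median change of 0.15 for knockdown, -0.19 for inhibitor and -0.23 for overexpression, beside medians over all genes of 0.03, 0.08 and 0.08. With sh1 alone 16 rose and 5 fell (50% and 15.6%, against 23.7% and 21.3% of all genes), and with sh2 alone 15 rose and 4 fell (46.9% and 12.5%, against 22% and 13.4%). Knockdown and inhibitor share the shControl libraries, so their values stand side by side only.

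**Figure D1:**
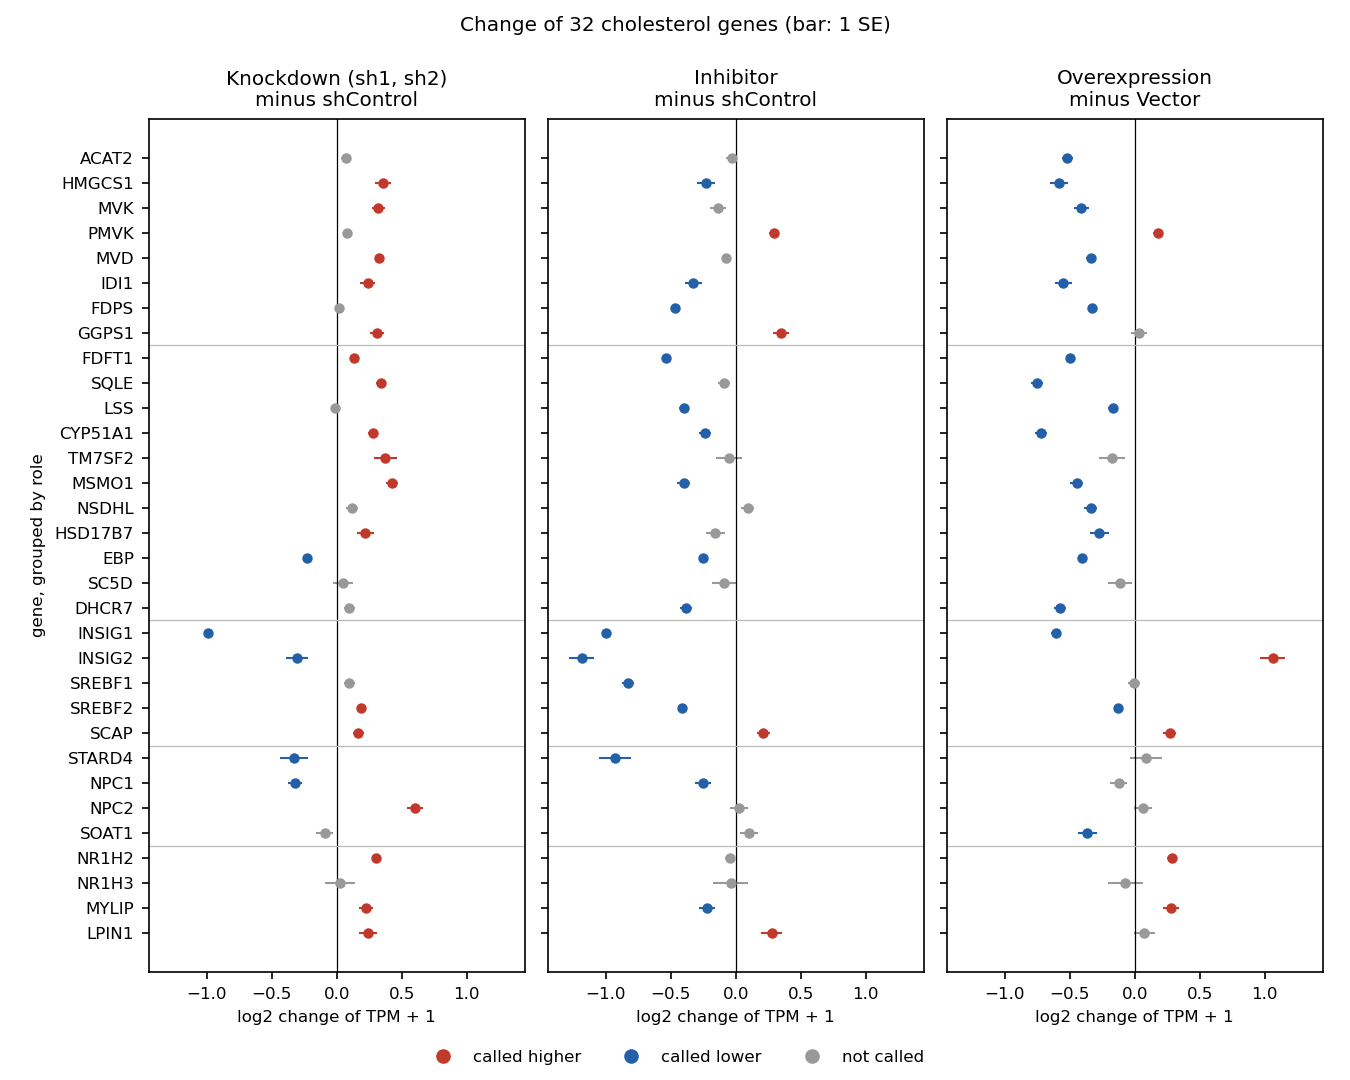
Log2 change of TPM + 1 (horizontal axis) of each of the 32 genes, grouped by role, in 3 panels for knockdown, inhibitor and overexpression; points are estimates from 2 to 4 libraries against 2 and bars are 1 SE, and colour gives the call. Enzymes in the upper 2 blocks lie mostly right of 0 in the knockdown and left of 0 with overexpression, INSIG1 lies left of 0 in each panel, and INSIG2 changes side.

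The largest change in each of the 3 comparisons was that of a control gene. INSIG1 and INSIG2, the sterol-sensing retention proteins, both fell in the knockdown and with the inhibitor, and went in opposite directions with overexpression only. Their promoters are shown together with that of SREBF2, which encodes SREBP-2, and of MSMO1, the enzyme with the largest knockdown rise. A link of these promoters to the changes was not tested. The windows come from RefSeq (GRCh38.p14, plus strand), read 5′ to 3′, and end before the first annotated transcript start of GENCODE 29. Capitals mark the SREBP site TCACNCCAC and the NF-Y box CCAAT (or its reverse complement ATTGG). The windows are chr7:155297628-155297775 for INSIG1, chr2:118088221-118088451 for INSIG2, chr22:41832855-41833078 for SREBF2 and chr4:165327419-165327622 for MSMO1.
INSIG1: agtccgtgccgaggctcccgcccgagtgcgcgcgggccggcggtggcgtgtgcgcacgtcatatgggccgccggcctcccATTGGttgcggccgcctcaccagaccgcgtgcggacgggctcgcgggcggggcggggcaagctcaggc
INSIG2: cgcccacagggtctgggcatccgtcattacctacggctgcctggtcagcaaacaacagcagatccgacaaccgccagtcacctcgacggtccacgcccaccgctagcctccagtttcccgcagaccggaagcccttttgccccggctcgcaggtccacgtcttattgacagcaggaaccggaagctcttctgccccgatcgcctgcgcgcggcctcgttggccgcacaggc
SREBF2: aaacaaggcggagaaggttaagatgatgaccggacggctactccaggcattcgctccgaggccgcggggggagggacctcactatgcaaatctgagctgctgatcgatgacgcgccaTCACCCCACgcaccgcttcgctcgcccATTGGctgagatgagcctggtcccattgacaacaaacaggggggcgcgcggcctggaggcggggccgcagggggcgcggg
MSMO1: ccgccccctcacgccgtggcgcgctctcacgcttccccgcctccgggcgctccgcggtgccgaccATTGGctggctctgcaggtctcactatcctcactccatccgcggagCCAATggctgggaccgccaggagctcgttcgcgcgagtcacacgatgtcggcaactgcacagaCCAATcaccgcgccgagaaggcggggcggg

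NF-Y is a factor known to act beside SREBPs at sterol genes. Searched on both strands in all RefSeq windows of a gene (250 bases before to 50 after each start), CCAAT was present in 21 of 29 members with a window (72.4%), against 43.9% of 8955 tested genes and 39.7% of all 27305 genes. INSIG1 and MSMO1 had it, and INSIG2, SREBF1, SCAP, NPC1, CYP51A1, PMVK, LPIN1 and NR1H2 did not in these windows. The strict SREBP site was found in SREBF2 alone among the members (3.45%, against 1.55% of tested genes), starting 133 bases before the RefSeq start, which lies 26 bases past the end of the printed window. The E-box CACGTG, which SREBPs can also bind, was found in 4 members (INSIG1, LSS, SC5D and SCAP; 13.8% against 13.1%), in INSIG1 55 bases before the RefSeq start, within the 102 bases up to that start that the printed window leaves out. The Sp1 box GGGCGG was in 28 of 29 members (96.6% against 77.4%). These matches describe letters in the windows only.

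INSIG1 (ENSG00000186480.12; GRCh38, chromosome 7, 155297776 to 155310235, plus strand, protein-coding) was the most abundant control gene. It stood at 348 and 342 TPM in shControl, 154 and 148 with sh1, 202 and 197 with sh2, 176 and 169 with the inhibitor, 326 and 338 in Vector and 223 and 211 with overexpression. Every perturbed library lay below every control library. INSIG1 fell in each comparison. Its change was -0.99 in the knockdown (SE 0.032, limma adjusted p = 1.17e-07, lower in 4 of 4 libraries), -0.997 with the inhibitor (SE 0.037, adjusted p = 1.61e-07) and -0.61 with overexpression (SE 0.037, adjusted p = 5.09e-06). The inhibitor and the mean of the hairpins did not differ beyond the test (-0.01, 95% interval -0.08 to 0.06). The hairpins themselves differed, with sh1 libraries below sh2 libraries (sh2 minus sh1 0.40, limma adjusted p = 0.00213). The inhibitor libraries lay above both sh1 libraries and below both sh2 libraries, so the test of the mean does not show a match with either hairpin. INSIG1 did not differ by the test between Vector and shControl (-0.06, adjusted p = 0.287).

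INSIG2 (ENSG00000125629.14; chromosome 2, 118088452 to 118110997, plus strand) rose with overexpression and fell with the inhibitor. Its levels were 20.03 and 22.1 TPM in shControl, 17.3 and 15.7 with sh1, 18.6 and 15.9 with sh2, 9.26 and 8.14 with the inhibitor, 18.0 and 18.7 in Vector and 41.8 and 37.0 with overexpression. The overexpression libraries were the highest of the 12 and the inhibitor libraries the lowest. The change was 1.06 with overexpression (SE 0.096, adjusted p = 4.9e-05), -1.19 with the inhibitor (SE 0.096, adjusted p = 2.36e-05) and -0.31 in the knockdown (SE 0.083, adjusted p = 0.0133). The knockdown call was lost without shControl replicate 2 (-0.24) and with the control columns exchanged (-0.12), an exchange tried because the table does not name the group of its control columns. Between the 2 paralogs, overexpression thus went in opposite directions, and the TPM level of INSIG1 was above that of INSIG2 in every library.

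**Figure D2:**
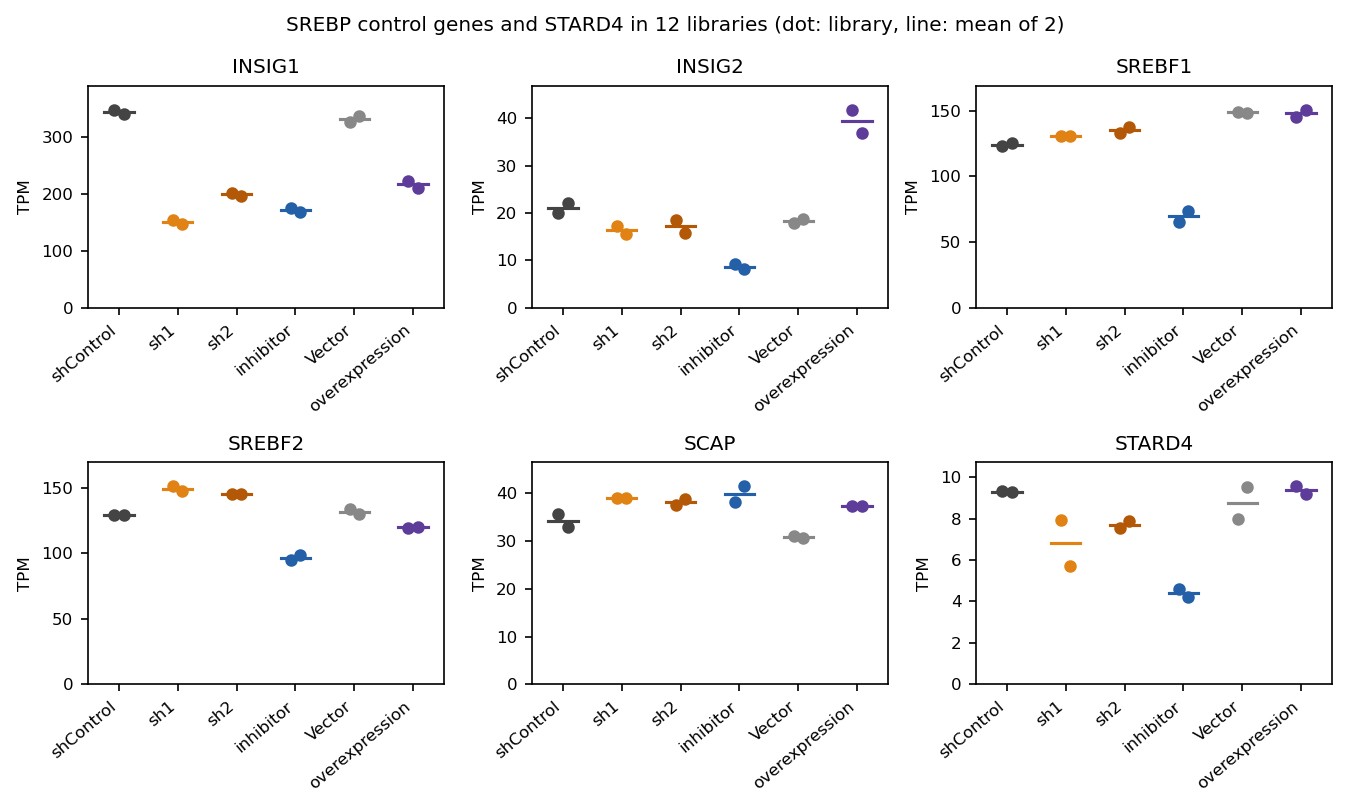
TPM (vertical axis, from 0) of INSIG1, INSIG2, SREBF1, SREBF2, SCAP and STARD4 in the 6 groups; dots are the 2 libraries of a group and lines their mean. INSIG1 is lower in all perturbed groups than in shControl and Vector, INSIG2 is highest with overexpression at 37.0 and 41.8 TPM, and SREBF1, SREBF2 and STARD4 are lowest with the inhibitor.

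Both SREBP genes fell with the inhibitor. SREBF1, which encodes SREBP-1 and lies on chromosome 17 (17810399 to 17837002, minus strand), was at 123 and 126 TPM in shControl and 65.7 and 73.6 with the inhibitor, a fall by 0.83 (SE 0.048, adjusted p = 2.92e-06). Levels of SREBF1 were 131 and 131 TPM with sh1, 133 and 137 with sh2, 149 and 148 in Vector and 145 and 151 with overexpression. Its changes in the knockdown (0.10, adjusted p = 0.081) and with overexpression (-0.01, adjusted p = 0.935) were not called, but Vector stood above shControl (0.26, adjusted p = 0.00365). With the control columns exchanged SREBF1 was called lower in the knockdown (-0.16) and higher with overexpression (0.25).

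SREBF2 (chromosome 22, 41833079 to 41907308, plus strand), whose window above holds the SREBP site, was at 129 and 129.5 TPM in shControl, 151 and 147 with sh1, 146 and 145 with sh2, 94.7 and 98.6 with the inhibitor, 134 and 129.7 in Vector and 119 and 120.4 with overexpression. The hairpin libraries lay above all others and the inhibitor libraries below all others. SREBF2 rose by 0.19 in the knockdown (adjusted p = 0.000337), and changed by -0.42 with the inhibitor (adjusted p = 1.12e-05) and -0.13 with overexpression (adjusted p = 0.00721). The overexpression call was lost without Vector replicate 1 (-0.11).

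SCAP, the escort that carries SREBPs to the Golgi, was at 35.7 and 32.9 TPM in shControl, 38.9 and 38.9 with sh1, 37.5 and 38.8 with sh2, 38.2 and 41.4 with the inhibitor, 31.0 and 30.6 in Vector and 37.3 and 37.3 with overexpression. SCAP was the control gene that was called higher in all 3 comparisons, by 0.17, 0.21 and 0.27. None of these calls held in every setting. After rescaling by the median of ratios SCAP changed by 0.13, 0.15 and 0.16 and was called in none. The knockdown and inhibitor calls were also lost without shControl replicate 2 (0.11 and 0.15), the inhibitor call without inhibitor replicate 2 (0.15) and after quantile normalization (0.10), and the overexpression call with the control columns exchanged (0.12).

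Of 19 enzyme genes of the route 11 rose and 1 fell in the knockdown (57.9% and 5.26%, against 26.2% and 20.2% of all genes). With the inhibitor 2 rose and 9 fell (10.5% and 47.4%, against 28% and 11.8%). With overexpression 1 rose and 15 fell (5.26% and 78.9%, against 26.6% and 10.3%). The inhibitor count of 9 lower enzymes became 13 with the median of ratios and 14 with quantile normalization. Their summed levels per library are given without a test. The 8 genes of the mevalonate and isoprenoid steps added up to 1338 and 1308 TPM in shControl, 1380 and 1382 with sh1, 1421 and 1421 with sh2, 1112 and 1138 with the inhibitor, 1184 and 1173 in Vector and 989 and 992 with overexpression, sums in which FDPS is the largest part. The 11 genes of the squalene and sterol steps added up to 846 and 854 TPM in shControl, 866 and 859 with sh1, 882 and 904 with sh2, 688 and 689 with the inhibitor, 789 and 772 in Vector and 580 and 585 with overexpression.

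Among the early steps, HMGCS1, the HMG-CoA synthase, was at 29.2 and 29.2 TPM in shControl, 39.1 and 36.9 with sh1, 38.5 and 36.4 with sh2, 25.3 and 24.3 with the inhibitor, 29.8 and 29.5 in Vector and 21.2 and 17.8 with overexpression. The hairpin libraries lay above both control groups and the inhibitor and overexpression libraries below them. HMGCS1 rose by 0.36 in the knockdown (SE 0.061, adjusted p = 0.00118) and fell by 0.58 with overexpression (SE 0.071, adjusted p = 0.000243). Its fall with the inhibitor (-0.23, adjusted p = 0.0287) was lost when either of the shControl or inhibitor libraries was left out (-0.20 to -0.26) and without the filter on low genes (-0.23).

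MVK, mevalonate kinase, was at 22.3 and 20.9 TPM in shControl, 27.8 and 27.4 with sh1, 27.7 and 26.1 with sh2, 18.6 and 20.5 with the inhibitor, 20.4 and 21.4 in Vector and 15.1 and 15.9 with overexpression. Like HMGCS1 it rose in the knockdown (0.32) and fell with overexpression (-0.41), but its inhibitor change was not called (-0.14, adjusted p = 0.0945). MVD, the decarboxylase that ends the mevalonate steps, rose from 66.8 and 64.0 TPM to between 81.6 and 83.8 in the 4 hairpin libraries (0.33) and fell from 60.8 and 60.5 in Vector to 47.7 and 47.8 (-0.34). IDI1, the isopentenyl diphosphate isomerase, was at 101 and 100.5 TPM in shControl, 118 and 114 with sh1, 122 and 123 with sh2, 83.7 and 76.8 with the inhibitor, 82.9 and 91.7 in Vector and 63.4 and 55.4 with overexpression. IDI1 rose by 0.24 in the knockdown, a call lost without shControl replicate 2 (0.23), and changed by -0.33 with the inhibitor, lost with the control columns exchanged (-0.12), and by -0.55 with overexpression.

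FDPS, the farnesyl diphosphate synthase and the most abundant member, did not pass in the knockdown (0.02, adjusted p = 0.609). It was at 802 and 786 TPM in shControl, 783 and 796 with sh1, 814 and 818 with sh2, 562 and 585 with the inhibitor, 701 and 688 in Vector and 555 and 550.4 with overexpression. FDPS fell by 0.47 with the inhibitor (adjusted p = 2.26e-06) and by 0.33 with overexpression (adjusted p = 2.23e-05). In the knockdown it was called higher after quantile normalization (0.07) and with the control columns exchanged (0.21). FDPS and HSD17B7, like CYP51A1, have pseudogenes of the same name in GENCODE 29, so reads can be split between copies and their levels are uncertain to that extent. The same holds for genes whose locus overlaps a protein-coding gene, on the same strand for CYP51A1, GGPS1 and TM7SF2 and on the other for ACAT2, GGPS1, MVK, NPC1, NPC2, NR1H2, NR1H3 and SREBF1.

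ACAT2, which joins acetyl-CoA units at the start of the route, was at 74.1 and 73.4 TPM in shControl, between 75.2 and 79.2 in the hairpin libraries, 72.0 and 72.1 with the inhibitor, 54.2 and 58.1 in Vector and 37.5 and 40.2 with overexpression. It fell by 0.52 with overexpression (adjusted p = 2.99e-05) and was also lower in Vector than in shControl (-0.39, adjusted p = 0.000257). With the control columns exchanged ACAT2 was therefore called higher in the knockdown (0.46) and with the inhibitor (0.36). PMVK, phosphomevalonate kinase, did not share the falls: it rose from 228 and 220 to 272 and 277 TPM with the inhibitor (0.29) and from 216 and 206 to 232 and 246 TPM with overexpression (0.18, not called after the median of ratios at 0.07 or with the control columns exchanged at 0.09). GGPS1, which makes geranylgeranyl diphosphate for protein prenylation, rose in the knockdown (0.31) and with the inhibitor (0.35) from 14.7 and 13.9 TPM in shControl to between 16.0 and 19.5, but Vector was at 18.7 and 17.1 TPM, and with the control columns exchanged neither was called (0.003 and 0.04).

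**Figure D3:**
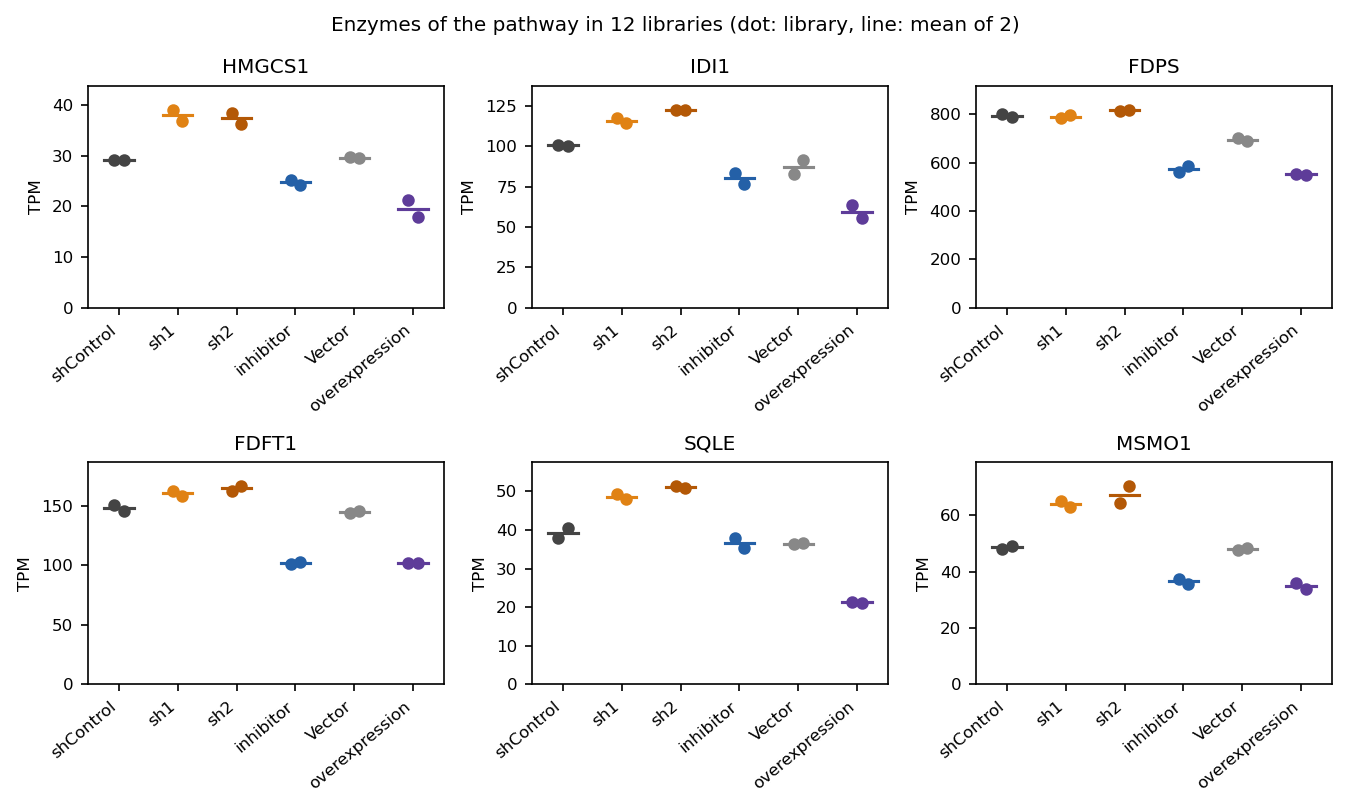
TPM (vertical axis, from 0) of the enzymes HMGCS1, IDI1, FDPS, FDFT1, SQLE and MSMO1 in the 6 groups; dots are the 2 libraries of a group and lines their mean. SQLE falls from 36.3 and 36.7 TPM in Vector to 21.3 and 21.1 with overexpression, and FDFT1 is at 101 to 103 TPM both with the inhibitor and with overexpression.

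In the sterol branch, FDFT1, the squalene synthase (chromosome 8, 11795573 to 11839309, plus strand), was at 151 and 146 TPM in shControl, 163 and 158 with sh1, 163 and 167 with sh2, 101 and 103 with the inhibitor, 144 and 146 in Vector and 102 and 102 with overexpression. It rose by 0.13 in the knockdown (SE 0.025, adjusted p = 0.00195) and fell by 0.54 with the inhibitor (SE 0.029, adjusted p = 1.98e-06) and by 0.50 with overexpression (SE 0.029, adjusted p = 3.65e-06). SQLE, the oxygen-dependent squalene epoxidase, was at 37.8 and 40.4 TPM in shControl, 49.3 and 47.9 with sh1, 51.3 and 50.8 with sh2, 38.0 and 35.4 with the inhibitor, 36.3 and 36.7 in Vector and 21.3 and 21.1 with overexpression. SQLE rose by 0.34 in the knockdown and had the largest fall of the 32 genes with overexpression (-0.75, SE 0.045, adjusted p = 4.97e-06). With the inhibitor its change was not called (-0.09, adjusted p = 0.144) but was after rescaling by the median of ratios (-0.15) or by quantiles (-0.19).

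CYP51A1, which removes the 14-methyl group of lanosterol, was at 39.5 and 40.1 TPM in shControl, 47.7 and 45.8 with sh1, 50.4 and 50.1 with sh2, 35.1 and 32.3 with the inhibitor, 36.7 and 37.3 in Vector and 22.6 and 21.5 with overexpression. Its changes were 0.28 for knockdown, -0.24 for inhibitor and -0.72 for overexpression, all called. MSMO1, the methylsterol monooxygenase whose window above holds 3 CCAAT boxes, was at 47.9 and 49.2 TPM in shControl, 64.9 and 62.9 with sh1, 64.4 and 70.2 with sh2, 37.4 and 35.7 with the inhibitor, 47.5 and 48.5 in Vector and 36.0 and 33.8 with overexpression. MSMO1 had the largest knockdown rise among the enzymes (0.43, SE 0.044, adjusted p = 5.05e-05) and fell with the inhibitor (-0.40) and with overexpression (-0.45). In both genes the hairpin libraries were the highest of the 12.

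DHCR7, the last reductase of the route, was at 76.5 and 79.6 TPM in shControl, between 81.5 and 85.7 in the hairpin libraries, 57.5 and 61.6 with the inhibitor, 76.5 and 76.6 in Vector and 49.3 and 52.8 with overexpression. It fell by 0.39 with the inhibitor (adjusted p = 0.000255) and by 0.58 with overexpression (adjusted p = 2.85e-05), and its knockdown change was not called (0.10, adjusted p = 0.0787). EBP, the sterol isomerase, was the enzyme that fell in all 3 comparisons (-0.23, -0.25 and -0.41). EBP stood at 265 and 267 TPM in shControl, between 219.6 and 239 in the hairpin libraries, 225 and 222 with the inhibitor, 236 and 224 in Vector and 173 and 173 with overexpression, and against Vector neither the knockdown (-0.02) nor the inhibitor (-0.04) was called.

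Of the remaining sterol enzymes, TM7SF2, a sterol reductase, rose in the knockdown (0.37; from 11.6 and 10.9 TPM to between 14.6 and 15.3), a call lost without shControl replicate 2 (0.33). LSS, the lanosterol synthase, fell with the inhibitor from 144 and 141 to 104 and 111 TPM (-0.40) and with overexpression by 0.17. NSDHL and HSD17B7, which act together on the 4-methyl groups, fell with overexpression (-0.34 and -0.27), and HSD17B7 rose in the knockdown (0.22), which was lost without shControl replicate 1 (0.11) and sh2 replicate 2 (0.20). The HSD17B7 fall with overexpression was also lost without Vector replicate 1 (-0.28), Vector replicate 2 (-0.27) or overexpression replicate 2 (-0.22). SC5D, the C5 desaturase, was low (3.66 to 5.18 TPM over the 12 libraries) and was called in none of the 3 comparisons.

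Knockdown and overexpression have separate controls, so their calls can be set against each other. Of the 32 genes 10 were called higher in the knockdown and lower with overexpression (HMGCS1, MVK, MVD, IDI1, FDFT1, SQLE, CYP51A1, MSMO1, HSD17B7 and SREBF2), a pair of calls that 1.44% of all tested genes had. The reverse pair was INSIG2 alone (3.76% of all genes). EBP and INSIG1 fell in both (5.1% of all genes), and SCAP, NR1H2 and MYLIP rose in both (11.7%). As given above or below, a call of the pair was lost in some fits without a library for IDI1, HSD17B7, SREBF2, INSIG2, SCAP and MYLIP, so these counts can shift. The difference of the 2 effects was tested in the same fit, a comparison added after the data were seen. It was called higher for 19 of the 32 genes and lower for 2, where 11.4% and 18.5% of all genes were called. Among the 19 enzymes 17 were higher and 0 lower by limma (0 lower also at an unadjusted p under 0.05), and PMVK (-0.10) and SC5D (0.16) were not called. A higher difference does not need opposite calls. Of the enzymes with a higher difference, EBP fell in both comparisons. ACAT2, FDPS, DHCR7, LSS and NSDHL were not called in the knockdown, and GGPS1 and TM7SF2 were not called with overexpression. The difference was 1.10 for SQLE (SE 0.060, adjusted p = 3.49e-06), 1.002 for CYP51A1 and 0.94 for HMGCS1, and -1.37 for INSIG2 (SE 0.126, adjusted p = 6.87e-05) and -0.38 for INSIG1. The call was lost for LSS in 8 of the fits without a library (0.14 to 0.17), for GGPS1 in 4 (0.21 to 0.26) and for EBP without Vector replicate 1 (0.14). With the control columns exchanged 16 enzymes were higher and GGPS1 was lower (-0.34).

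**Figure D4:**
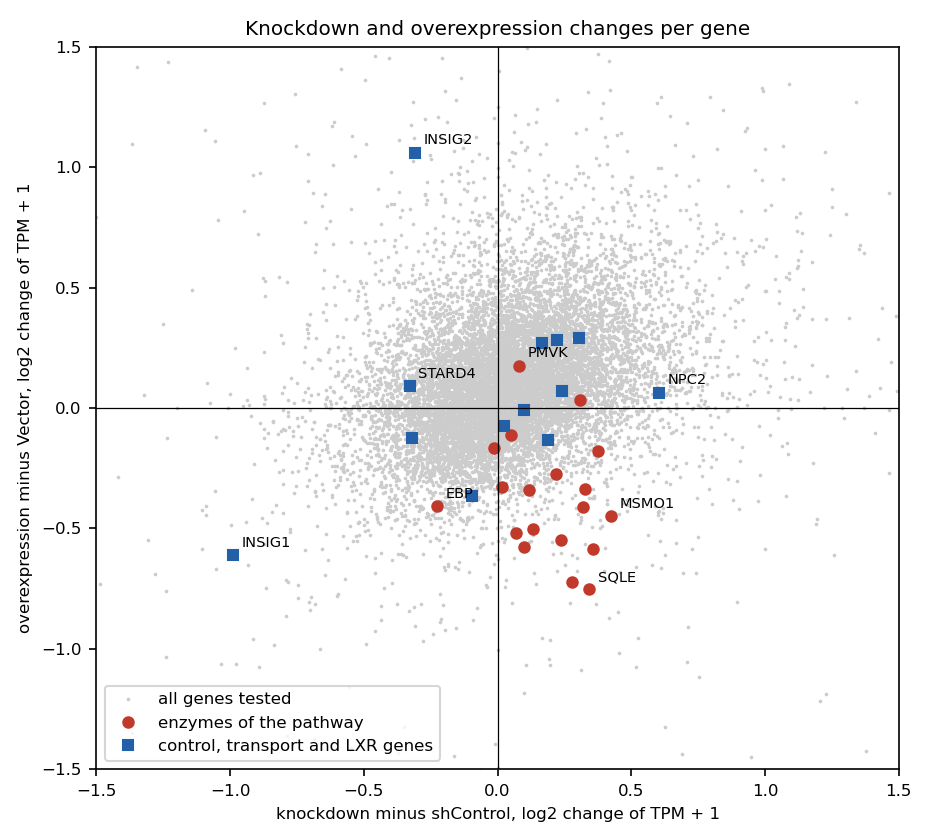
Log2 change of TPM + 1 in the knockdown (horizontal axis) against that with overexpression (vertical axis), 1 point a gene; grey points are all tested genes, red circles the 19 enzymes and blue squares the other 13 members, and 111 grey genes lie outside the axes, which end at 1.5 either way. Most enzymes lie right of 0 and below 0, where SQLE has 0.34 and -0.75, while INSIG1 lies left and below at -0.99 and -0.61 and INSIG2 left and above at -0.31 and 1.06.

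The inhibitor was also tested directly against the mean of the hairpins, which uses no control library. In that comparison 21 of the 32 genes were lower with the inhibitor and 2 higher (65.6% and 6.25%), against 21.6% and 30.9% of all genes. Of the 19 enzymes 14 were lower, led by MSMO1 (-0.83, adjusted p = 7.86e-07) and FDFT1 (-0.67, adjusted p = 1.19e-07), and PMVK was higher (0.21). SREBF1 (-0.93), INSIG2 (-0.88) and SREBF2 (-0.60) were lower as well, while INSIG1, as given above, and SCAP (0.04) did not pass. SOAT1, which esterifies cholesterol for storage, was higher (0.20). The count of higher genes was 1 without inhibitor replicate 1, inhibitor replicate 2, sh1 replicate 2 or sh2 replicate 1.

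Between the hairpins INSIG1 was the 1 member of 32 that was called, where 1.16% of all genes were called higher with sh2 and 0.385% lower. Of the enzymes 0 were called between sh1 and sh2 by limma (1 at an unadjusted p under 0.05), with differences from -0.04 to 0.19.

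Genes of sterol transport and storage gave mixed changes. STARD4, which carries cholesterol between membranes, was at 9.31 and 9.30 TPM in shControl, 7.92 and 5.73 with sh1, 7.53 and 7.88 with sh2, 4.62 and 4.22 with the inhibitor, 8.0002 and 9.54 in Vector and 9.56 and 9.17 with overexpression. It fell by 0.93 with the inhibitor (SE 0.123, adjusted p = 0.00039). The smaller knockdown change (-0.33, adjusted p = 0.03) was not called without either shControl library or either sh2 library (-0.31 to -0.34), without the filter or in a fit of these groups alone (-0.33 each), or with the control columns exchanged (-0.25).

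NPC2, which hands cholesterol to NPC1 inside the lysosome, was at 54.2 and 49.1 TPM in shControl, 82.9 and 81.1 with sh1, 71.8 and 80.7 with sh2, 55.4 and 49.7 with the inhibitor, 93.9 and 89.7 in Vector and 93.6 and 98.5 with overexpression. The hairpin libraries thus lay above shControl and below Vector. The knockdown rise of 0.61 (adjusted p = 4.88e-05) became -0.21 with the control columns exchanged, and the inhibitor change of 0.02 became -0.79. NPC1 fell in the knockdown from 13.04 and 14.2 TPM to between 10.0 and 11.2 (-0.32, adjusted p = 0.00125) and with the inhibitor to 11.1 and 11.4 (-0.25), the latter not without shControl replicate 2 (-0.20) or inhibitor replicate 1 (-0.23). SOAT1 fell with overexpression from 11.4 and 11.3 to 9.34 and 7.82 TPM (-0.37, adjusted p = 0.00377).

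Of the LXR genes, NR1H2, which encodes LXR-beta, rose from 77.6 and 78.9 TPM to between 93.6 and 101 in the hairpin libraries (0.31, adjusted p = 7.57e-05) and from 88.3 and 85.3 to 103 and 110 with overexpression (0.29). NR1H3, which encodes LXR-alpha, was low (2.82 to 4.35 TPM) and was not called in any comparison. MYLIP, an LXR-induced ubiquitin ligase that removes lipoprotein receptors, was at 12.2 and 12.7 TPM in shControl, between 13.7 and 15.6 in the hairpin libraries, 10.7 and 10.4 with the inhibitor, 14.4 and 16.3 in Vector and 19.2 and 18.6 with overexpression. MYLIP changed by 0.22, -0.22 and 0.28. Its knockdown call was lost without shControl replicate 1 (0.19) and with the control columns exchanged (-0.06), its inhibitor call without shControl replicate 2 (-0.20) or inhibitor replicate 1 (-0.25) or 2 (-0.20), and its overexpression call without Vector replicate 1 (0.20). LPIN1, a phosphatidate phosphatase and SREBP target, was at 18.5 and 19.7 TPM in shControl, between 21.3 and 25.4 in the hairpin libraries, 24.0 and 22.7 with the inhibitor and between 28.1 and 32.02 in Vector and overexpression. Its changes of 0.24 and 0.28 against shControl became -0.36 and -0.32 against Vector, all called. Against shControl the knockdown call was lost without shControl replicate 1 (0.20), and the inhibitor call without shControl replicate 1 (0.23), without inhibitor replicate 1 (0.24) and after quantile normalization (0.17).

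Vector and shControl, both controls, differed in 12 of the 32 genes, 6 in each direction (18.8% each, against 21.4% higher and 7.86% lower of all genes). Besides NPC2 (0.82), LPIN1 (0.60), GGPS1 (0.31), MYLIP (0.28), SREBF1 (0.26) and ACAT2, the called genes were NR1H2 (0.15), HSD17B7 (-0.22), EBP (-0.21), IDI1 (-0.21), FDPS (-0.19) and LSS (-0.17). The count of lower genes rose to 15 with the median of ratios and to 11 with quantiles.

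Counts for 3 lists of neighbouring genes follow, to be read against the shares of all genes called: 26.2% higher and 20.2% lower in the knockdown, 28% and 11.8% with the inhibitor and 26.6% and 10.3% with overexpression. Of 14 genes of the isoprenoid branches (dolichol, ubiquinone and protein prenylation), 2 rose and 4 fell in the knockdown, 7 rose and 0 fell with the inhibitor by limma (0 lower at an unadjusted p under 0.05), and 2 rose and 3 fell with overexpression. These are 14.3% higher and 28.6% lower in the knockdown, 50% higher with the inhibitor, and 14.3% and 21.4% with overexpression. With the inhibitor they had a median of 0.27, with ICMT, the prenylcysteine methyltransferase, at 0.44 and PDSS1, which makes the ubiquinone tail, at 0.41. Of 16 tested genes of SREBP processing and sterol handling, 6 rose and 2 fell in the knockdown, 1 rose and 3 fell with the inhibitor, and 4 rose and 1 fell with overexpression. Their shares were 37.5% and 12.5% in the knockdown, 6.25% and 18.8% with the inhibitor, and 25% and 6.25% with overexpression, the last near those of all genes. GRAMD1A, a sterol carrier at contacts with the plasma membrane, fell by 0.76 with the inhibitor (from 47.4 and 49.4 to 28.3 and 28.1 TPM). It rose by 0.37 with overexpression and changed by -0.19 in the knockdown. ABCG1, an LXR-induced sterol exporter, changed by -0.57 with the inhibitor and 0.36 with overexpression, and rose in the knockdown too (0.27). ABCG1 also differed between the controls, at 46.5 and 44.0 TPM in shControl and 58.4 and 60.1 in Vector. Of 13 tested fatty acid targets of SREBP-1, 4 rose and 5 fell in the knockdown, 2 rose and 8 fell with the inhibitor and 0 rose and 7 fell with overexpression by limma (0 higher at an unadjusted p under 0.05). The shares were 30.8% and 38.5% in the knockdown, 15.4% and 61.5% with the inhibitor and 53.8% lower with overexpression. With the inhibitor the desaturase genes FADS2 (-2.34), FADS1 (-1.47) and SCD (-1.27) changed most. The fatty acid synthase FASN fell in the knockdown too (-0.38; 168 and 169.6 TPM in shControl, between 127 and 134 in the hairpin libraries).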

How the data were processed

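Poly(A) RNA of KMS11 cells was sequenced stranded on DNBSEQ, per the labels' protocols. The deposited table holds TPM values made by the authors; the submitters' processing notes list, with no roles, GRCh38.p13, DESeq2 1.4.5, RSEM 1.3.1, Bowtie2 2.3.4.3 and HISAT. TPM keeps no depth, so library depth is unknown. Control columns carry library numbers only and were assigned to shControl and Vector by the matching numbers in the labels, an inference.

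Genes reaching 1 TPM in 2 or more libraries were analysed as log2(TPM + 1). limma 3.58.1 (R 4.3.3) fitted 6 group means (eBayes, trend), and p-values were adjusted by Benjamini-Hochberg across all genes tested, with calls below 0.05. The script was tested on simulated data. The members, gene lists and motifs were chosen with earlier results of these data known. Values for every library are given for control genes and for members called with a log2 change of at least 0.4, and others by range or shorter; of other lists up to 3 genes are named. Alternatives were pseudocounts 0.1 and 0.5, other filters (none, 5 TPM), fits of the groups compared, 2 rescalings, other eBayes settings, a replicate block, exchanged control columns and each library left out. In GENCODE 29 the loci of 8 members overlap a protein-coding gene on the other strand and those of 3 members one on the same strand, and the strand setting of the counting is not given in the sources used here. Promoter windows from RefSeq matched 29 of 32 members.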

Additional observations from a re-analysis of the deposited data

Results flagged for a closer look

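The effect of the 2 hairpins on INSIG1 differed by a test of the difference itself. INSIG1 was higher with sh2 than with sh1 by 0.40 on the log2(TPM + 1) scale (limma adjusted p = 0.00213, 2 libraries each), and STK17B, the target of both hairpins, was 0.29 higher with sh2 without passing (adjusted p = 0.116).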

How the results depend on the processing

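Over 18 genes in the 3 main comparisons, 846 recomputed values held 802 with the same direction and call, 27 that lost a call, 12 that gained one and 5 that turned. The 5 came from exchanged control columns: SREBF1 (-0.16) and NPC2 (-0.21) in the knockdown, ACAT2 (0.36) and NPC2 (-0.79) with the inhibitor and SREBF1 (0.25) with overexpression. Quantile normalization left 2 members higher with the inhibitor and 1 higher against the hairpins, and the median of ratios left 3 higher with overexpression. In Vector against shControl these rescalings gave 11 and 15 lower. With exchanged control columns the added difference of knockdown and overexpression was lower for 9 members in place of 2. Rescaling also moved the share of all calls that were higher, from 56.4% to 48.7% (median of ratios) and 47.7% (quantile) in the knockdown, 70.3% to 55.9% and 51.9% with the inhibitor, 72.1% to 43.2% and 46.3% with overexpression, 62.2% to 47.8% and 46.8% for sh2, 73.1% to 42.9% and 48.4% for Vector, 75.1% to 52.6% and 54.1% for sh2 against sh1, and 38% to 55.7% and 52% for the added difference. Leaving out a library gave 14 to 17 higher and 3 to 5 lower members in the knockdown, 10 to 13 and 3 to 5 for sh1, 12 to 14 and 3 to 4 for sh2, 3 higher and 13 to 16 lower with the inhibitor, 4 to 5 and 16 to 18 with overexpression, 1 to 2 higher and 20 lower for the inhibitor against the hairpins, 4 to 5 in each direction for Vector, 16 to 19 and 2 to 3 for the added difference and 1 for sh2 against sh1. In these fits a library left alone in its group is assumed to vary like the other groups. The knockdown count of 3 lower came without shControl replicate 2, as did 3 for sh1, which sh1 replicate 2 gave too; 10 higher for sh1 came without sh1 replicate 1. The replicate block left 17 higher and 5 lower in the knockdown, 4 and 16 with the inhibitor and 5 and 18 with overexpression. Deviations of libraries with equal replicate numbers correlated between -0.10 and 0.14 over pairs of groups, which does not show whether equal numbers share a culture or a batch. Exchange of the control columns has no value of its own for Vector against shControl, where it only turns the sign.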
